A study of Mus musculus with 6 samples.

Results

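RANKL, its decoy receptor OPG, its receptor RANK and the CSF1R ligands CSF1 and IL-34 were followed in osteoblasts (OBs) of BMP-2-induced ectopic bone, as 5 genes (*Tnfsf11*, *Tnfrsf11b*, *Tnfrsf11a*, *Csf1* and *Il34*) of the 23284 listed in the files. The genes were taken by their symbols, and all 5 were found in every file. ECFP+ OBs had been sorted from implants in male *Col2.3*-ECFP mice aged 12 to 16 weeks, in 3 samples of day 10 and 3 samples of day 14 after implantation. In both groups a collagen sponge with 2.5 μg of BMP-2 had been placed under the skin of the back, and no untreated or sham-implanted group was analysed here. ECFP is driven by a fragment of the type I collagen promoter, so the sort collects cells in which that promoter is active, and CD45+ and dead cells were gated out. Collagenase digestion was done 1 time for day 10 tissue and 2 times for day 14 tissue, so the digestion and the day cannot be told apart. The titles name biological replicates 1 to 3 of each day, without the number of mice in a sample. The free-text descriptions of day 14 replicates 2 and 3 give day 15 and day 16 instead, and the titles were followed.

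Osteoclasts form from myeloid precursors that need signals from OB-lineage cells. RANKL, encoded by *Tnfsf11*, binds the receptor RANK (*Tnfrsf11a*) on these precursors and drives their differentiation, and OPG (*Tnfrsf11b*) is a secreted receptor that binds RANKL and keeps it from RANK. CSF1 and IL-34 both signal through the receptor CSF1R (*Csf1r*), which keeps the precursors alive and dividing. The balance of RANKL to OPG is therefore often taken as a measure of how strongly an OB population can support osteoclasts.

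The RNA values are FPKM, read counts scaled by transcript length and by the mapped reads of the sample, so levels of different genes can be set side by side. Steps between low FPKM values gave an estimated depth of 4557500 to 7789000 mapped reads per sample. Day 14 replicate 2 stood apart. This sample listed the fewest genes above 0 FPKM (16646 against 17630 to 19698 in the others), at an estimated 5939500 mapped reads. It had the most cartilage RNA (*Col2a1*, 688 FPKM against 8.75 to 373 in the others) and the least CD45 RNA (*Ptprc*, 0.134 FPKM against 0.259 to 2.99), and each result below that rests on it is also given without it. In bulk samples, fewer cells of a type and less RNA per cell cannot be told apart. *Col1a1*, the defining gene of the sort, was at 14151 to 34157 FPKM, while the T-cell gene *Cd3e* and the B-cell gene *Cd79a* stayed at or below 1.07 and 0.325 FPKM and the endothelial gene *Pecam1* at or below 1.35 FPKM.

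*Tnfsf11*, the gene of RANKL, lies on the minus strand of chromosome 14 from 78277445 to 78308043 (mm10, GENCODE vM21, protein-coding). Its promoter at chr14:78307994-78308293 on the minus strand, from 250 bases before to 50 bases after the start of the gene (RefSeq, GRCm38.p6), is shown because all day 14 samples were above all day 10 samples in *Tnfsf11* and *Csf1*, and both promoters could be read. It is printed on the strand of the gene with motif matches in capitals.
Tnfsf11: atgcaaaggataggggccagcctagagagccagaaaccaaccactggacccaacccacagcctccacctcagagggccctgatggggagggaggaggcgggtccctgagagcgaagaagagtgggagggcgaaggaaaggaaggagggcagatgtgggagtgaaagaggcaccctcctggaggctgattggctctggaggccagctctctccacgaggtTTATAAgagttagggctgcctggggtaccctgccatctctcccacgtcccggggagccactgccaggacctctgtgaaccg
Both strands were searched for TATAA (TATA box), AACCACA (a RUNX core), TGANTCA (AP-1), TGACGTCA (cAMP response element) and the NF-κB motif. The capitals are overlapping matches to the TATA box on both strands, of which the one on the strand of the gene starts at position −30 relative to the start of the gene. A TATAA on either strand is held by 24.9% of the 32851 promoter windows of this length. The other motifs were not matched in this window, and 5.27% (RUNX core), 7.81% (AP-1) and 1.79% (cAMP response element) of all windows hold them.

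*Tnfsf11* had 15.3, 22.2 and 15.6 FPKM in day 10 replicates 1, 2 and 3 and 22.5, 33.0 and 23.7 FPKM in day 14 replicates 1, 2 and 3. All day 14 values thus lay above all day 10 values, though day 10 replicate 2 and day 14 replicate 1 were nearly level. Day 10 averaged 17.7 ± 3.92 FPKM (SD, n = 3) and day 14 averaged 26.4 ± 5.74 FPKM (SD, n = 3). The log2 fold change of FPKM + 0.1 was 0.57 (standard error 0.22, 95% interval 0.08 to 1.07), with an unadjusted p of 0.0276 and an adjusted p of 0.434 over all genes from limma. *Tnfsf11* thus did not pass the test over all genes. The 9 lymphocyte genes, of a lineage that can also make RANKL, summed to 2.30, 2.60 and 2.84 FPKM on day 10 and 7.47, 0.808 and 8.19 FPKM in day 14 replicates 1, 2 and 3, and their part in the values of *Tnfsf11* was not tested. Without day 14 replicate 2 the log2 fold change was 0.40 and the unadjusted p from limma was 0.0941. The unadjusted p from limma was also above 0.05 without day 10 replicate 1 (0.0918) and without day 10 replicate 3 (0.0871).

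*Tnfrsf11b*, the gene of OPG, lies on the minus strand of chromosome 15 from 54250619 to 54278484. Its values were 39.2, 43.9 and 22.7 FPKM in day 10 replicates 1, 2 and 3, and 19.1, 81.4 and 8.78 FPKM in day 14 replicates 1, 2 and 3. Day 14 held both the highest and the lowest value, 9.27 times apart, whereas the day 10 samples were within 1.94 times of each other. The means were 35.3 ± 11.2 FPKM (SD, n = 3) and 36.4 ± 39.3 FPKM (SD, n = 3). The log2 fold change was −0.50 (standard error 0.69, 95% interval −2.08 to 1.08, adjusted p = 0.873 from limma), so that neither a fall nor a rise of this gene was resolved. This direction rested on single samples. Without day 14 replicate 2, both remaining day 14 samples lay below all day 10 samples, and the log2 fold change was −1.38 (unadjusted p = 0.00714, adjusted p = 0.172 from limma). Without day 14 replicate 3 it was 0.22, in the opposite direction. It was −0.32 without day 10 replicate 2, −0.34 without day 14 replicate 1 and −0.79 without day 10 replicate 3.

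**Figure D1:**
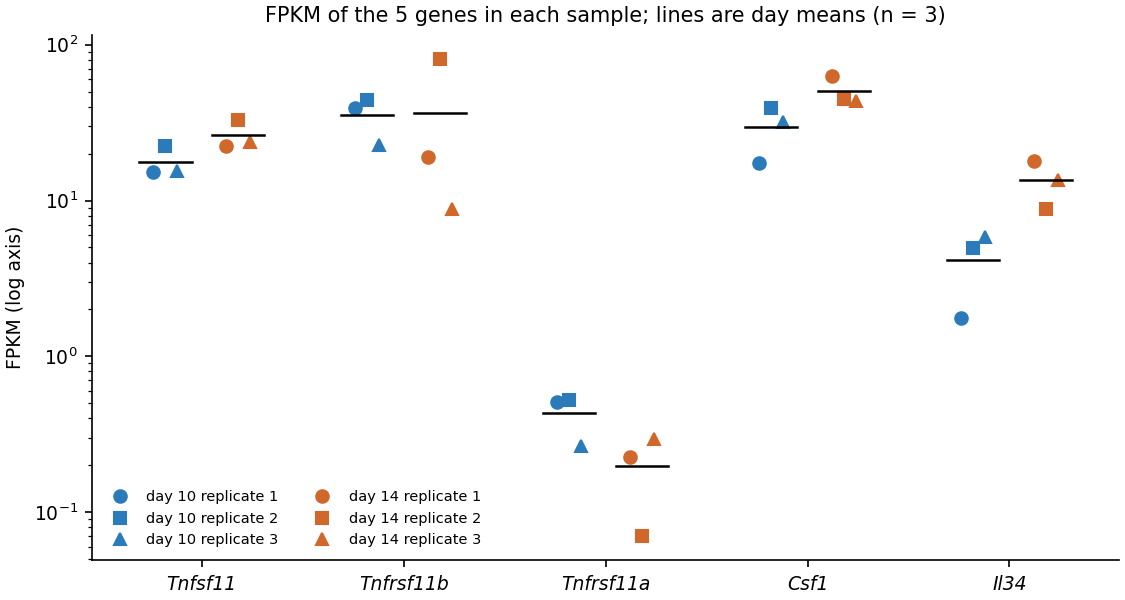
FPKM of the 5 genes on a log axis in the 3 day 10 samples (blue) and the 3 day 14 samples (orange), with the replicate number given by the marker shape and the mean of each day as a line. *Tnfsf11*, *Csf1* and *Il34* lay higher in every day 14 sample, *Tnfrsf11b* spread from 8.78 to 81.4 FPKM on day 14, and *Tnfrsf11a* stayed at or below 0.528 FPKM.

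The ratio of *Tnfsf11* to *Tnfrsf11b* was 0.390, 0.506 and 0.687 in day 10 replicates 1, 2 and 3 and 1.18, 0.405 and 2.69 in day 14 replicates 1, 2 and 3. *Tnfrsf11b* exceeded *Tnfsf11* in all 3 day 10 samples and in day 14 replicate 2, and it was the lower of the pair in day 14 replicates 1 and 3. The groups overlapped, since day 14 replicate 2 fell among the day 10 samples. The ratio averaged 0.528 ± 0.150 (SD, n = 3) for day 10 and 1.43 ± 1.16 (SD, n = 3) for day 14. On the log2 scale the ratio was 1.08 higher on day 14, within the spread of the day 14 samples (SD 1.36; two-sided exact permutation test, p = 0.3, where 3 samples against 3 can reach 0.1 at the smallest). The difference was 1.79 without day 14 replicate 2 and 0.43 without day 14 replicate 3. Among the day 14 samples the highest *Tnfsf11* value was 1.46 times the lowest, against 9.27 times for *Tnfrsf11b*.

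**Figure D2:**
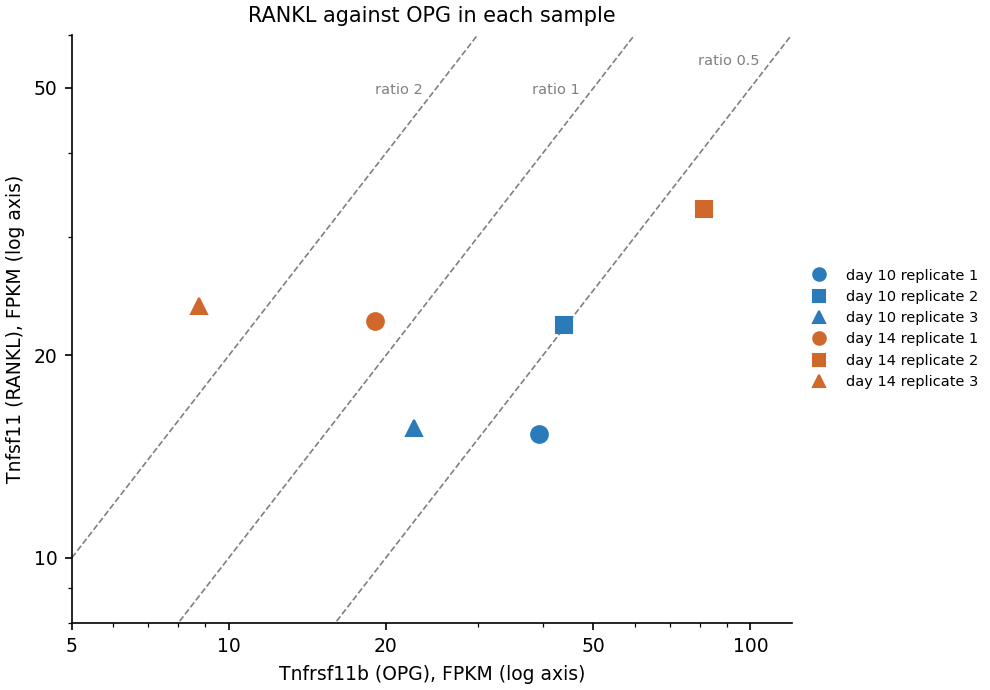
FPKM of *Tnfsf11* (RANKL) against FPKM of *Tnfrsf11b* (OPG), both on log axes, with 1 point per sample and dashed lines of equal ratio (0.5, 1 and 2). Day 14 replicates 1 and 3 lie above the line of ratio 1, with ratios of 1.18 and 2.69, and the other 4 samples lie below it.

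*Tnfrsf11b* was set beside genes of differentiated OBs and of cartilage, of which *Alpl* and *Vdr* were chosen after their values were seen. *Alpl*, the tissue-nonspecific alkaline phosphatase of mineralizing cells, had 1129, 1055 and 809 FPKM on day 10 and 273, 1300 and 186 FPKM in day 14 replicates 1, 2 and 3. The vitamin D receptor *Vdr* had 28.1, 37.7 and 15.5 FPKM on day 10 and 10.9, 37.0 and 7.16 FPKM on day 14. In all 3 genes day 14 replicate 3 was lowest and day 14 replicate 1 next lowest, and in *Tnfrsf11b* and *Alpl* day 14 replicate 2 was highest. Of the 10 OB genes, 2 were highest in that sample. All 10 had a lower mean log2 level on day 14. An unadjusted p under 0.05 from limma with a lower level was found for 1 of them, beside 4.4% of all genes tested. The 12 chondrocyte genes summed to 1621, 1400 and 783 FPKM on day 10 and to 235, 2577 and 177 FPKM on day 14 in replicate order, with the same 2 samples lowest and the same sample highest. All 12 were above 0 FPKM in every sample. The mean log2 level was lower on day 14 in 10 of the 12, with such a p in 3. The 10 OB genes summed to 93683, 103110 and 53902 FPKM on day 10 and to 46263, 77116 and 39437 FPKM on day 14, so that day 14 replicate 2 lay below day 10 replicates 1 and 2, unlike in *Tnfrsf11b*. The part of the OB and cartilage makeup of the samples in the values of *Tnfrsf11b* was not tested.

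*Tnfrsf11a*, the gene of the RANKL receptor RANK, lies on the plus strand of chromosome 1 from 105780718 to 105847981. It was barely detected, with 0.508, 0.528 and 0.267 FPKM on day 10 and 0.227, 0.0700 and 0.294 FPKM in day 14 replicates 1, 2 and 3. At the estimated depth and the annotated transcript of 5027 bases, these values stand for 12, 14 and 10 reads on day 10 and 5, 2 and 10 reads on day 14, each within 0.1 of a whole number. A count of 3 reads would be 0.105 FPKM in day 14 replicate 2, above the value listed there. The days overlapped, with means of 0.434 ± 0.146 and 0.197 ± 0.115 FPKM (SD, n = 3 each) and a log2 fold change of −0.89 (95% interval −2.32 to 0.54, adjusted p = 0.705 from limma). The fold change of so low a gene depends on the added 0.1, and it was −0.26 with 1 added and −1.25 with 0.01 added. Without day 14 replicate 2, the sample with 2 reads, it was −0.53. *Csf1r*, the CSF1 and IL-34 receptor of myeloid cells, was at 4.84, 9.91 and 8.40 FPKM on day 10 and 9.12, 2.48 and 16.0 FPKM on day 14. Both receptor genes were lowest in day 14 replicate 2, where 10 myeloid genes summed to 21.5 FPKM against 41.2 to 617 in the others. Of these 10 genes, *Adgre1* and *C1qa* were listed at 0 in that sample, and the part of myeloid cells in the receptor values was not tested. A difference between the days in *Tnfrsf11a* was not detectable at this depth.

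*Csf1*, which encodes macrophage colony-stimulating factor, lies on the minus strand of chromosome 3 from 107741048 to 107760469. Its promoter window, at chr3:107760420-107760719 on the minus strand and printed in the same way, is shown beside that of *Tnfsf11*.
Csf1: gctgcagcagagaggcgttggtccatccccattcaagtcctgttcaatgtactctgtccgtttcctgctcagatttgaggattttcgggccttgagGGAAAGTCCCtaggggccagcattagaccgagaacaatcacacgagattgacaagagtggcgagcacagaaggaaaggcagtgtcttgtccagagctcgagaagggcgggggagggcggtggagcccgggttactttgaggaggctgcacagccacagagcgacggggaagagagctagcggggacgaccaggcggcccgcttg
The capitals are 1 match to the NF-κB motif on the opposite strand, starting at position −154 relative to the start of the gene, and 8.46% of all windows hold such a match. No other motif searched was matched, and a match is a description of the letters only.

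*Csf1* had 17.5, 39.2 and 32.0 FPKM on day 10 and 62.6, 44.6 and 43.8 FPKM in day 14 replicates 1, 2 and 3. All day 14 samples were above all day 10 samples, with the widest spread on day 10, where replicate 1 was lowest. Day 10 averaged 29.6 ± 11.0 FPKM (SD, n = 3) and day 14 averaged 50.3 ± 10.7 FPKM (SD, n = 3). The log2 fold change was 0.82 (standard error 0.30, 95% interval 0.14 to 1.50), with an unadjusted p of 0.0230 and an adjusted p of 0.416 from limma. Without day 10 replicate 1 it was 0.48, with an unadjusted p of 0.0621 from limma, and without day 14 replicate 1 it was 0.65, with an unadjusted p of 0.0985 from limma.

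*Il34*, the gene of the other CSF1R ligand, lies on the minus strand of chromosome 8 from 110741829 to 110805924. Its 1.76, 4.93 and 5.86 FPKM on day 10 stood against 18.0, 8.80 and 13.6 FPKM in day 14 replicates 1, 2 and 3. All day 14 samples were again above all day 10 samples. The means were 4.18 ± 2.15 FPKM (SD, n = 3) and 13.5 ± 4.61 FPKM (SD, n = 3), the largest log2 difference among the 5 genes. Its log2 fold change was 1.77 (standard error 0.45, 95% interval 0.74 to 2.80), a 3.41-fold higher level of FPKM + 0.1 on day 14, with an unadjusted p of 0.00395 and an adjusted p of 0.309 from limma. The log2 fold change lay between 1.25 and 2.09 when each sample was left out in turn. The adjusted p from limma ran from 0.128 to 0.968 over all alternatives. In values chosen after they were seen, *Il34* also took a larger part of the summed FPKM of the CSF1R ligands *Csf1* and *Il34*, with 9.12, 11.2 and 15.5% on day 10 and 22.3, 16.5 and 23.7% in day 14 replicates 1, 2 and 3. *Csf1* remained the more abundant ligand in every sample, from 3.21 to 9.96 times the FPKM of *Il34*.

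Over the 19526 genes tested, 3 had an adjusted p under 0.05 from limma (0.0154%), and none of the 5 genes was among them. An unadjusted p under 0.05 from limma with a higher level on day 14 was found for 3 of the 5 genes (*Tnfsf11*, *Csf1* and *Il34*), beside 5.6% of all genes tested, and with a lower level for 0 of the 5, beside 4.4%. In a fit of only the genes averaging above 1 FPKM, these 3 of the 4 genes tested had such a p with a higher level. The shares of all genes in that fit were 9.11% higher and 6.15% lower. In the same 3 genes the lowest day 14 value exceeded the highest day 10 value, which held for 7.59% of all genes tested. The reverse order held for 0 of the 5, beside 6.67%. Leaving out day 10 replicate 1 left 1 of the 5 genes with such a p and a higher level (*Il34*), beside 3.0% of all genes. Leaving out day 10 replicate 3 or day 14 replicate 1 left 2, beside 5.94% and 5.44%. The median log2 fold change of the 5 genes was 0.57 and that of all genes tested −0.04. Without day 14 replicate 2, 2 of the 5 genes had such a p with a higher level and 1 with a lower level, beside 7.01% and 5.99% of all genes.

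**Figure D3:**
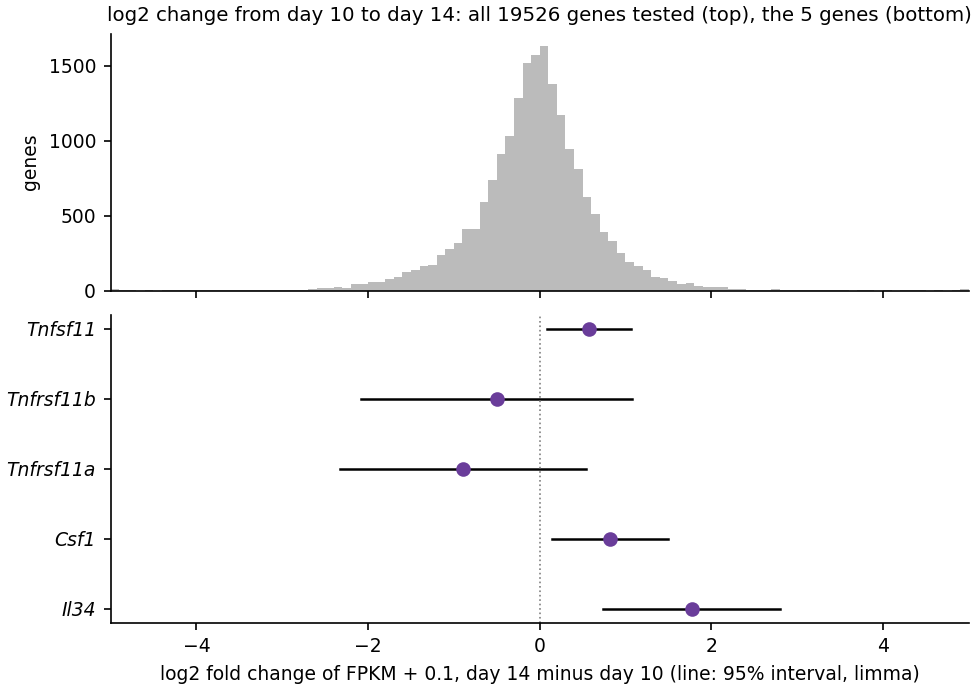
Log2 fold changes of FPKM + 0.1, day 14 over day 10, as a histogram of the 19526 genes tested (top, values beyond 5 drawn in the end bins) and for each of the 5 genes with its 95% interval from limma (bottom). The intervals of *Tnfsf11*, *Csf1* and *Il34* lie above 0, and those of *Tnfrsf11b* and *Tnfrsf11a* span 0.

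On day 10 the order of the mean FPKM was *Tnfrsf11b*, *Csf1*, *Tnfsf11*, *Il34* and *Tnfrsf11a*, and on day 14 *Csf1* stood before *Tnfrsf11b*. *Tnfrsf11b* and *Csf1* overlapped on both days, as did *Csf1* and *Tnfsf11* on day 10 and *Tnfrsf11b* and *Tnfsf11* on day 14. *Il34* was below *Tnfsf11* and above *Tnfrsf11a* in all 6 samples without overlap within a day. Among the 23284 genes listed, *Csf1* ranked 1890 by its mean on day 10 and 1228 on day 14, *Tnfsf11* 2959 and 2188, *Il34* 7260 and 3727, and *Tnfrsf11b* 1598 and 1647.

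Across the 6 samples, *Csf1* and *Il34* had the most similar profiles of any pair among the 5 genes (Pearson r = 0.946 on log2(FPKM + 0.1), n = 6). The r was 0.685 for *Tnfsf11* with *Csf1* and 0.268 for *Tnfsf11* with *Tnfrsf11b*. *Tnfrsf11b* had an r of −0.461 with *Il34* and −0.237 with *Csf1*. Among genes that averaged 1 FPKM or more with no value of 0, the profiles closest to *Tnfsf11* were those of *Thbd* (thrombomodulin, r = 0.985), *Rora* (a nuclear receptor, r = 0.984) and *Ctnna1* (α-catenin, r = 0.984). Closest to *Tnfrsf11b* were *Tmem35* (r = 0.996), *4930503L19Rik* (r = 0.992) and *Agt* (angiotensinogen, r = 0.985). For *Csf1* they were *Ak5* (an adenylate kinase, r = 0.991), *Pde2a* (a cyclic nucleotide phosphodiesterase, r = 0.990) and *E030003E18Rik* (r = 0.987). For *Il34* they were *Psap* (prosaposin, r = 0.994), *Cpxm1* (r = 0.992) and *Smurf1* (a ubiquitin ligase of the BMP pathway, r = 0.989). For the barely detected *Tnfrsf11a* they were *Baat1* (r = 0.988), *Tfb1m* (a mitochondrial rRNA methyltransferase, r = 0.985) and *1110037F02Rik* (r = 0.984). These are the highest of 10907 or 10908 values of r over only 6 samples, which differ in depth and in cell-type marker RNA, and are given as a description.

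The wider RANKL and CSF1R system was described with 71 genes in 6 lists, all of which were measured and tested. None had an adjusted p under 0.05 from limma, and the smallest was 0.116 (*Il6*). The unadjusted p from limma was under 0.05 in 16 genes that were higher and 4 that were lower on day 14, beside 5.6% and 4.4% of all genes tested. In the fit of only the genes averaging above 1 FPKM, 16 of 62 were higher and 3 lower, beside 9.11% and 6.15%. The 71 genes had a median log2 fold change of 0.31, against −0.04 for all genes tested. The counts moved when single samples were left out, as did the share of all genes tested. Without day 14 replicate 2 they were 19 higher and 12 lower (7.01% and 5.99% of all genes), and *Il6* then had an adjusted p of 0.0406 from limma. They were 10 and 2 without day 10 replicate 1 (3.0% and 1.84%), 14 and 1 without day 10 replicate 2 (4.50% and 3.01%) and 18 and 7 without day 10 replicate 3 (5.94% and 4.17%). They were 13 and 2 without day 14 replicate 1 (5.44% and 8.17%) and 11 and 2 without day 14 replicate 3 (4.02% and 2.98%). Of the 20 genes, 9 kept an unadjusted p under 0.05 from limma whichever sample was left out (*Sdc1*, *Il6st*, *Ptger4*, *Tnfrsf1b*, *Il17ra*, *Il6*, *Il11*, *Cxcl12* and *Tcf7*), and the other 11 lost it without at least 1 sample. The 20 had been picked for that p in the same 6 samples. The share of all genes with such a p that keep it was not computed, so the 9 are a description only.

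Among the signals that act on RANKL and OPG in OBs, 3 of 14 ligand and enzyme genes had an unadjusted p under 0.05 from limma, all with higher values on day 14. Of all genes tested, 5.6% had such a p with a higher level. *Il6*, an interleukin that raises RANKL in OB-lineage cells, had 105, 87.4 and 97.2 FPKM on day 10 and 214, 199 and 218 FPKM on day 14 (log2 fold change 1.13). *Il11*, a cytokine of the same family, averaged 1.28 ± 0.116 on day 10 and 3.33 ± 1.18 on day 14 in FPKM (SD, n = 3 each, log2 fold change 1.26). *Lif*, another member of that family, averaged 9.64 ± 3.86 on day 10 and 15.5 ± 1.79 on day 14 in FPKM (SD, n = 3 each, log2 fold change 0.75). In each of these 3 genes the days did not overlap, though the highest day 10 and the lowest day 14 value of *Lif* both round to 13.6 FPKM. Every day 14 sample lay above every day 10 sample in 7.59% of all genes tested. Without day 10 replicate 1 the log2 fold change of *Lif* was 0.44, with an unadjusted p of 0.0940 from limma. The prostaglandin synthase gene *Ptgs2* was the most abundant of this list, with 272 to 367 FPKM on day 10 and 277 to 608 FPKM on day 14. Its highest value was in day 14 replicate 2, and its log2 fold change was 0.36 with that sample and 0.07 without it.

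Of the 18 receptor genes for such signals, 7 had an unadjusted p under 0.05 from limma with higher values on day 14 and 1 with lower values. Over all genes tested these shares were 5.6% and 4.4%. The higher ones included the IL-6 family receptor subunits *Il6st* (log2 fold change 0.65) and *Osmr* (0.90), the interleukin-17 receptor *Il17ra* (0.86), the TNF receptor *Tnfrsf1b* (1.11) and the prostaglandin E2 receptor *Ptger4* (0.77). The TGF-β receptor *Tgfbr2* (0.83) and the glucocorticoid receptor *Nr3c1* (0.40) were the other two. The log2 fold change of *Tgfbr2* was 0.53 without day 14 replicate 3, with an unadjusted p of 0.106 from limma. Without day 14 replicate 2 it was 1.16. Of the 6 fits that each left out 1 sample, *Nr3c1* kept an unadjusted p under 0.05 from limma in 1, *Tgfbr2* in 2 and *Osmr* in 3. *Pth1r*, the receptor for parathyroid hormone, which raises RANKL and lowers OPG in OBs, had 248, 166 and 135 FPKM on day 10 and 72.7, 173 and 35.6 FPKM in day 14 replicates 1, 2 and 3. Its log2 fold change was −1.21 with an unadjusted p of 0.0429 from limma, and its days overlapped through day 14 replicate 2, as they did in *Tnfrsf11b*. Without that sample the log2 fold change of *Pth1r* was −1.80, and without day 14 replicate 3 it was −0.66, with an unadjusted p of 0.140 from limma. The unadjusted p of *Pth1r* from limma was also above 0.05 without day 10 replicate 1 (0.133), day 10 replicate 2 (0.0769) and day 14 replicate 1 (0.117).

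**Figure D4:**
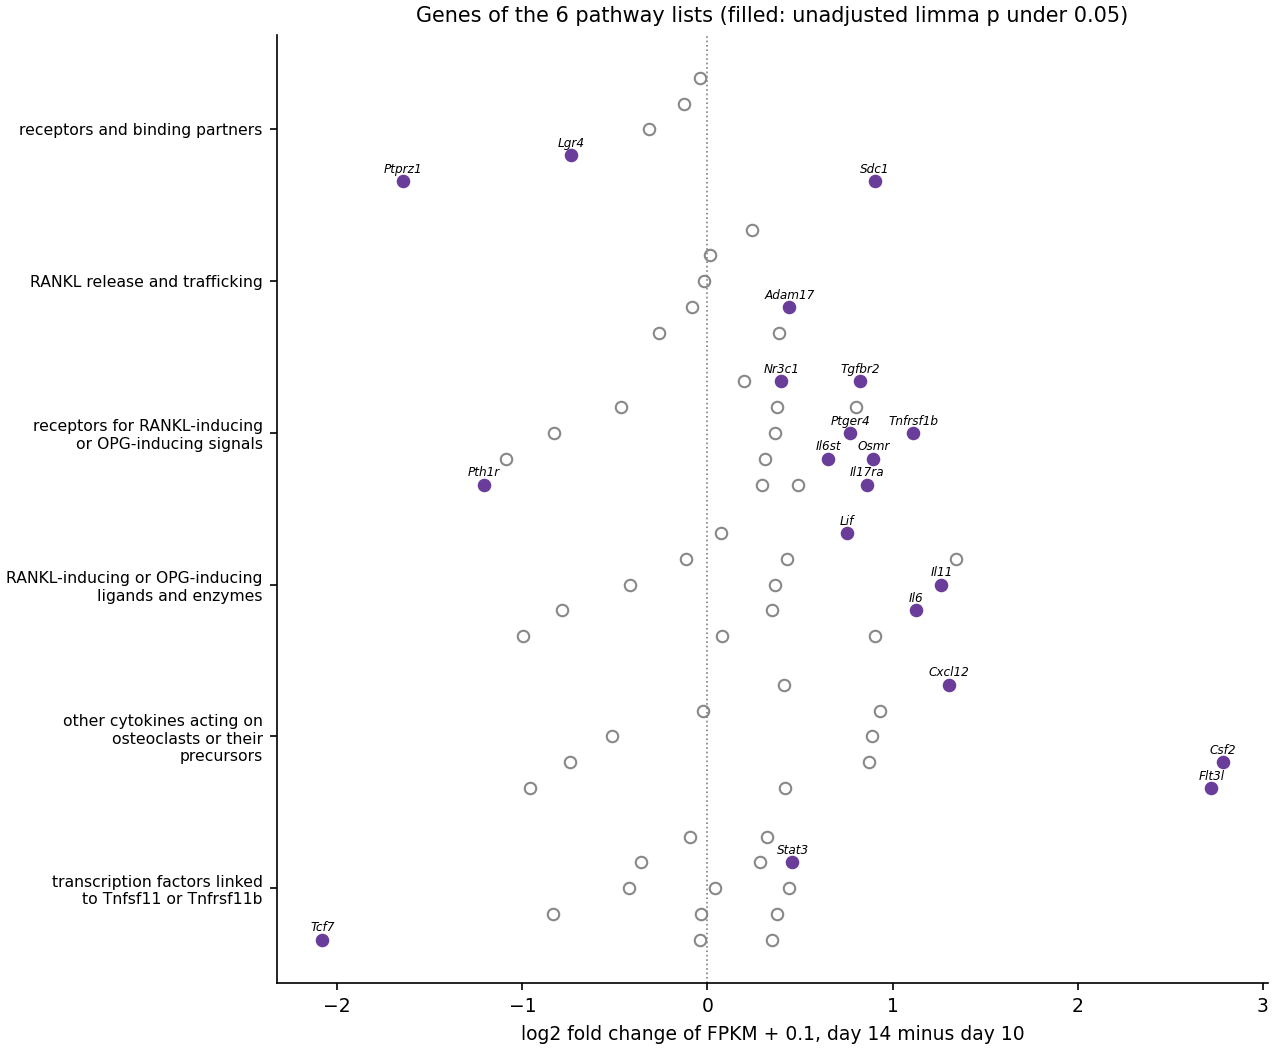
Log2 fold changes of FPKM + 0.1, day 14 over day 10 of the 71 genes, 1 point per gene in the row of its list, with filled points for an unadjusted p under 0.05 from limma. The filled points number 16 on the right of 0 and 4 on the left, and none had an adjusted p under 0.05.

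Of the 6 receptors and binding partners, 1 was higher and 2 were lower at an unadjusted p under 0.05 from limma, beside 5.6% and 4.4% of all genes. *Sdc1*, the heparan sulfate proteoglycan syndecan-1 that IL-34 can bind, had 51.9, 87.2 and 84.5 FPKM on day 10 and 148, 111 and 153 FPKM on day 14 (log2 fold change 0.90). *Ptprz1*, a receptor-type phosphatase that can also bind IL-34, had a log2 fold change of −1.65, and *Lgr4*, a receptor that RANKL can bind, one of −0.74. Without day 14 replicate 2 these were −2.16 and −0.97, and without day 14 replicate 3 they were −1.13 and −0.51. Of the 7 genes for RANKL release and trafficking, *Adam17*, a membrane protease that can shed RANKL, had 19.8, 22.4 and 20.8 FPKM on day 10 and 26.7, 27.6 and 31.8 FPKM on day 14 (log2 fold change 0.44, unadjusted p = 0.0155 from limma). *Mmp14*, the most abundant of them and also a sheddase of RANKL, had 479, 628 and 661 FPKM on day 10 and 723, 812 and 756 FPKM on day 14, without overlap but with an unadjusted p of 0.102 from limma.

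Of 12 other cytokines that act on osteoclasts or their precursors, 3 were higher on day 14 at an unadjusted p under 0.05 from limma and none lower. The shares of all genes tested were 5.6% and 4.4%. *Cxcl12*, a chemokine that draws precursors, had 114, 134 and 196 FPKM on day 10 and 549, 218 and 379 FPKM on day 14 (log2 fold change 1.31). *Csf2* (GM-CSF) and *Flt3l* were low, with 0 to 1.40 and 0 to 1.18 FPKM on day 10 and 2.04 to 8.06 and 2.33 to 3.53 FPKM on day 14, and each was listed at 0 in 1 day 10 sample, so that their fitted fold changes depend on the added 0.1. The chemokines *Ccl7* and *Ccl2* were the most abundant of this list, with log2 fold changes of 0.87 and 0.93, and overlapped between the days through day 14 replicate 2. Without that sample the log2 fold changes were 1.44 and 1.42 (unadjusted p = 0.00622 and 0.0154 from limma). Without day 14 replicate 3 they were 0.65 and 0.45. Of 14 transcription factors linked to *Tnfsf11* or *Tnfrsf11b*, 1 was higher and 1 lower at an unadjusted p under 0.05 from limma. The shares of all genes tested were again 5.6% and 4.4%. *Stat3* was the higher one (log2 fold change 0.46) and *Tcf7*, a factor of the Wnt pathway, the lower one. The days of *Stat3* overlapped, and it kept such a p in 2 of the 6 fits that each left out 1 sample. *Tcf7* had 46.0, 28.4 and 18.5 FPKM on day 10 and 7.00, 17.3 and 2.51 FPKM on day 14 (log2 fold change −2.08, unadjusted p = 0.00957 from limma). *Fos* and *Jun* were the most abundant of this list, with log2 fold changes of −0.10 and 0.35 and overlapping days.

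Genes of osteoclasts, the cells that respond to RANKL through RANK, were examined beside these values. *Dcstamp* and *Ocstamp*, needed for the fusion of osteoclast precursors, were at or below 0.980 and 0.727 FPKM, *Calcr* at or below 0.338 FPKM and *Oscar* at or below 0.676 FPKM. *Acp5* (TRAP) had 22.8 to 35.1 FPKM on day 10 and 18.3 to 37.7 FPKM on day 14. *Ctsk* had 403 to 425 FPKM on day 10 and 574 to 614 FPKM on day 14 (unadjusted p = 0.0145 from limma). *Nfatc1* had 25.3 to 35.0 and 41.8 to 58.9 FPKM (unadjusted p = 0.00505 from limma), and *Mmp9* had 7.73 to 24.7 and 22.6 to 35.9 FPKM. These 3 genes are not particular to osteoclasts. Of the 10 osteoclast genes, 2 were higher and 0 lower at an unadjusted p under 0.05 from limma, beside 5.6% and 4.4% of all genes tested. The mean log2 level was higher on day 14 in 4 of the 10 and lower in 6. The summed FPKM of the 10 osteoclast genes was 476 to 527 on day 10 and 678 to 736 on day 14, of which *Ctsk* made up most.

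**Figure D5:**
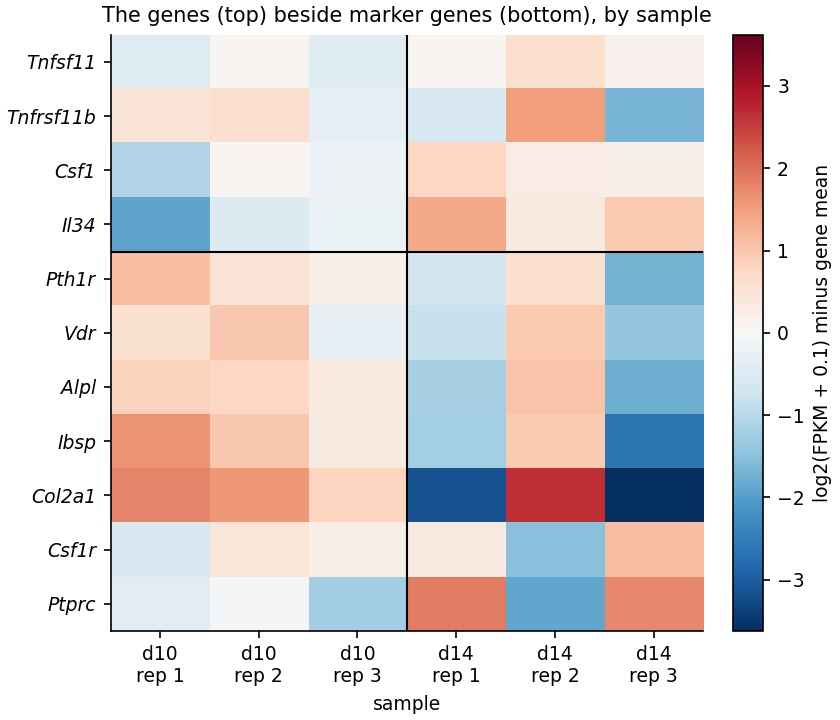
Log2(FPKM + 0.1) of *Tnfsf11*, *Tnfrsf11b*, *Csf1* and *Il34* (above the line) and of receptor and cell-type marker genes (below it) in each sample, as the difference from the gene's mean over the 6 samples (red above, blue below). *Tnfrsf11b*, *Alpl*, *Vdr* and *Col2a1* are high in day 14 replicate 2 and low in day 14 replicates 1 and 3, whereas *Il34* and *Csf1* are lowest in day 10 replicate 1 and highest in day 14 replicate 1.

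*Csf1* and *Il34* were set beside markers of other cells in the same way. Of 7 fibroblast genes, 6 had a higher mean log2 level on day 14, 2 of them with an unadjusted p under 0.05 from limma, and the 7 summed to 3145 to 4259 FPKM on day 10 and 3309 to 5497 FPKM on day 14. Over all genes tested, such a p with a higher level was found for 5.6%, and the median log2 fold change was −0.04. All 8 endothelial genes had a higher mean log2 level on day 14, 1 with such a p, and they summed to 13.1 to 21.1 FPKM on day 10 and 19.4 to 28.6 FPKM on day 14, most of it *Eng*. The highest *Csf1* and *Il34* values were in day 14 replicate 1 and the lowest in day 10 replicate 1. The endothelial sum, and the adipocyte sum given next, were highest and lowest in the same samples. The myeloid sum was highest in day 14 replicate 3, the fibroblast sum in day 14 replicate 2 and the osteocyte sum in day 10 replicate 2. The 6 adipocyte genes summed to 19.6 to 32.6 FPKM on day 10 and 52.3 to 80.4 FPKM on day 14, and all 4 that were tested were higher on day 14, 3 of them with an unadjusted p under 0.05 from limma (*Fabp4*, *Cebpa* and *Lpl*). The defining *Adipoq* and *Plin1* were at or below 0.213 FPKM. The 6 osteocyte genes summed to 261 to 1059 FPKM on day 10 and 200.0 to 528 FPKM on day 14, with *Sost* at or below 1.24 FPKM. The part of these cells in the values of *Csf1* and *Il34* was not tested.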

How the data were processed

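RNA of sorted ECFP+ OBs was read as 75-base single-end reads after SMART-Seq Ultra Low Input amplification. The deposited FPKM values were made by the authors with TopHat2 2.0.13, Bowtie2 2.2.3 and Cufflinks 2.2.1 on mm10. FPKM keeps no counts, so depth was estimated from the steps between low values of genes with 1 transcript. A fragment of 220 bases was used, which among lengths of 150 to 260 bases brought these values nearest to whole reads. With it, 74.7 to 79.7% of these values lay within 0.1 of a whole read, a share that the choice of length and depth itself favours. In day 14 replicate 2 the symbols of 25 genes were restored by position.

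Genes with a mean above 0.1 FPKM were tested on log2(FPKM + 0.1) with limma 3.58.1 (trend, R 4.3.3), with Benjamini-Hochberg adjustment over 19526 genes and tested on simulated data first. Fold changes on this scale understate those of low genes. P-values measure the spread between these samples, which may be partly technical. The ratio was compared with a two-sided exact permutation test. Same-numbered samples did not deviate together (r of 0.0580, −0.00584 and 0.0888), so they were not paired.

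The 5 genes and all lists were chosen with earlier results of these data known. Pathway genes were named for an unadjusted p under 0.05 or as 1 of the 2 highest means of a list, except *Vdr*, which was named after its values were seen, and similar genes as the 3 with the highest r. Of the marker genes, those beyond *Col1a1*, *Ptprc*, *Csf1r*, *Acp5*, *Ctsk*, *Col2a1*, *Pecam1*, *Cd3e* and *Cd79a* were named after their values were seen. Of the genes listed, 89.8% matched GENCODE vM21 by symbol. Promoters of *Tnfrsf11b* and *Il34* were not analysed here. Other pseudocounts, filters, scalings and models, and leaving out each sample, were tried as alternatives.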

Additional observations from a re-analysis of the deposited data

How the results depend on the processing

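*Tnfsf11*, *Csf1* and *Il34* kept their direction in all 15 alternatives and *Tnfrsf11a* in all 14 that tested it, and none of the 5 genes passed an adjusted p of 0.05 from limma in any. For *Tnfsf11*, *Csf1* and *Il34* the direction was fixed in advance when 1 sample was left out, since their days did not overlap. Other filters and models leave the fold change itself unchanged, so their direction could not turn either. *Tnfrsf11b* kept its direction in 14 of 15. Leaving out each sample gave log2 fold changes of −1.38 to 0.22 for it, the latter without day 14 replicate 3. The unadjusted p from limma was under 0.05 for *Il34* in 15 of 15 alternatives, for *Csf1* in 10, for *Tnfsf11* in 9 and for *Tnfrsf11b* in 1. Of the 5 genes only *Il34* had such a p without the filter, without the trend and in an ordinary linear model. The number of genes past the adjusted p was 3, 6 in an ordinary linear model and 3 to 76 when each sample was left out, with 76 without day 14 replicate 2, 6 without day 10 replicate 3 or day 14 replicate 1 and 5 without day 10 replicate 2. With the replicate number as a block it was 2, *Tnfsf11* had an adjusted p of 0.256 and 21 pathway genes were higher and 8 lower at an unadjusted p under 0.05 from limma, beside 6.15% and 4.76% of all genes. The difference of the log2 ratio of *Tnfsf11* to *Tnfrsf11b* stayed above 0 in all 10 alternatives. The log2 fold change of *Csf1r* (−0.04) turned to 0.0016 at a pseudocount of 1 and to 0.17, 0.05 and 0.70 without day 10 replicate 2, day 10 replicate 3 and day 14 replicate 2, within −0.62 to 0.70 when each sample was left out, and that of *Fos* ran from −0.26 to 0.066 in the same way. The causes were not tested. Over all alternatives 9 to 21 pathway genes were higher and 0 to 12 lower at an unadjusted p under 0.05 from limma, beside 3.0 to 9.11% and 1.84 to 8.17% of all genes. Depth limits *Tnfrsf11a*, at 2 to 14 reads, most.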
